A study of Rattus norvegicus with 4 samples.

Results

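The insulin-like growth factor (IGF) binding proteins and the IGF1 genes of the liver were examined in rats that inhaled sevoflurane or desflurane. The 10 genes were chosen by name, and with earlier results of the same libraries known. They are *Igfbp1* to *Igfbp7*, the growth factor gene *Igf1*, *Igfals* and the growth hormone receptor gene *Ghr*, out of 16992 genes in the deposited tables. Because the first 2 binding protein genes had already been seen to differ more than 2-fold in these libraries, the values below are descriptions.

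The study compared global expression profiles in the liver between these inhalational anesthetic agents. Livers came from 4 male, wild type Wistar rats that were 6 weeks old when purchased and were deprived of food and water before the experiment, with 1 rat and 1 library for each condition. Rats inhaled 4.5% sevoflurane or 6% desflurane with oxygen for 6 h, and the control of each agent inhaled the same gas mixture and was sacrificed as soon as it lost consciousness. Both controls were therefore exposed to an anesthetic, no rat was without one, and all rats were sacrificed at about the same time of day. The 6 h rats could not eat while anesthetized. Time under an agent and a longer time without food can therefore not be told apart in any comparison of a 6 h library with a control. RNA from the left lateral lobe, depleted of ribosomal RNA, was sequenced. Expression was measured as TPM (transcripts per 1000000), a level that accounts for transcript length. With 1 library per condition, no difference between an agent and its control has a replicate check. A test of 6 h across the agents would take the agents as replicates of each other, and no test was made and no p-value calculated. The 2 control livers provided the only view of how much a gene differs between livers taken without long anesthesia, although in this pair the rat and the agent cannot be told apart. In a whole piece of liver, fewer cells of a type and less RNA per cell cannot be told apart either.

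IGF1 is a hormone that the liver secretes under the control of growth hormone, which acts through the receptor encoded by *Ghr*. Most IGF1 in the blood travels in a large complex with IGFBP3 or IGFBP5 and the acid-labile subunit, the product of *Igfals*, whereas the other IGF binding proteins form smaller complexes that limit or direct its access to receptors. *Igfbp1* is well known in the liver as a gene that insulin represses, through FOXO transcription factors, and that fasting, glucocorticoids and cellular stress induce.

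Each library held between 9474 and 9695 genes above a TPM of 2. The aligned sequence of a library, estimated from the deposited values, was between 4.47 and 5.40 Gb. Hepatocyte markers were abundant in every library, with *Alb* (albumin) at TPM values of 77519 to 92912, and the 8 hepatocyte markers summed to between 134345 and 151263. In the 9136 genes above a TPM of 2 throughout, the median shift after 6 h on the log2 scale was 0.05 for sevoflurane and 0.11 for desflurane. The same genes differed between the controls by a median of 1.11-fold, and 1.11% of them differed more than 2-fold. Pancreatic acinar markers, which healthy liver lacks, summed to a TPM of 48.6 in the sevoflurane control and to 0.746, 2.35 and 3.995 in the 6 h sevoflurane, desflurane control and 6 h desflurane libraries. The sevoflurane control therefore stood apart in this respect, and the 10 genes are compared with both controls.

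The 10 genes spanned more than 3 orders of magnitude in expression. *Igf1* and *Igfbp4* had the highest TPM values in all 4 libraries, followed by *Ghr* and *Igfals*, then *Igfbp7* and *Igfbp3*, and *Igfbp2*, *Igfbp5* and *Igfbp6* were at the low end, with TPM values of 8.94 or less. *Igfbp1* was at rank 7 of the 10 genes in 3 libraries and at rank 5 in the 6 h desflurane library, where it exceeded *Igfbp3* and *Igfbp7*.

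**Figure D1:**
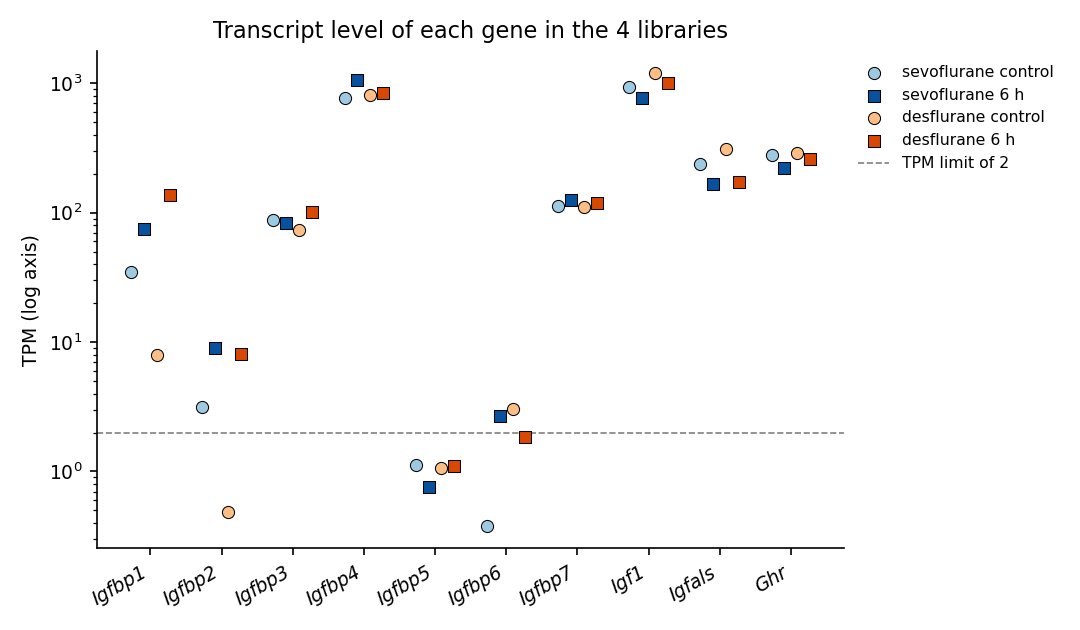
Transcript level of the 10 genes in the 4 libraries, in TPM on a log axis, with 1 point per library (circles for controls, squares for 6 h) and a dashed line at the TPM limit of 2. *Igfbp1* and *Igfbp2* are the genes whose squares both lie well above both circles, and *Igf1*, *Igfbp4*, *Ghr* and *Igfals* are the most abundant.

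The letters upstream of *Igfbp1* and *Igfbp2* are shown because these genes were called with both agents, and those of *Igf1* because it shares with *Igfbp1* the core of the forkhead-type insulin response element for which the *Igfbp1* promoter is known. The stretches are those that RefSeq gives for build GRCr8, not the rn6 build of the expression tables, and they end at the base before the transcription start. They read 5′ to 3′ on the strand of the gene, which is the plus strand in each case. Capitals mark CAAAACA, a core of the insulin response element, in *Igfbp1* and *Igf1*, and CACGTG in *Igfbp2*, which holds the hypoxia response core ACGTG on both strands. *Igfbp1* is shown at chr14:86261027-86261276, *Igfbp2* at chr9:81864561-81864810, and the last 100 bases of *Igf1* at chr7:24172432-24172531.
*Igfbp1*: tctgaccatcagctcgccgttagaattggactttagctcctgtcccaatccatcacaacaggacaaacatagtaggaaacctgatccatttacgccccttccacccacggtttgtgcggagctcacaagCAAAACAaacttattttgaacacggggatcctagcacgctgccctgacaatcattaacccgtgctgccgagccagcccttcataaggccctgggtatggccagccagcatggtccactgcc
*Igfbp2*: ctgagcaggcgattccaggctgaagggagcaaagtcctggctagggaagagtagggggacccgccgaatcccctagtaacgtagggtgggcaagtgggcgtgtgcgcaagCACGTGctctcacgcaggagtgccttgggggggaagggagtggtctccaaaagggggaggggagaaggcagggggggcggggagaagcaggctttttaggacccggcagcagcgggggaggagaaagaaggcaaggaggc
*Igf1*: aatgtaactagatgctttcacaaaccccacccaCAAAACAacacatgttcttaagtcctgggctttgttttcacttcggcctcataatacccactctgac

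All 10 genes had a RefSeq promoter, and the 250 bases before the start were searched on both strands, beside the same window of all 33469 rat promoters in the table. CAAAACA was present in *Igfbp1*, between 121 and 115 bases before the start, in *Igf1*, between 67 and 61 bases before it, and in 5.46% of all promoters. GTAAACA, a forkhead consensus, was present in *Igfbp6* and in 3.21% of all promoters. The short forkhead core AAACA, which lies within both, occurred in 5 of the 10 promoters and in 47% of all promoters. The one-sided glucocorticoid element TGTTCT was found in *Igf1*, *Ghr* and *Igfbp6* and in 17.5% of all promoters. ACGTG was found in *Igfbp2* and *Igfbp7* and in 16.6% of all promoters, and the TATA box core TATAAA in *Igfbp4* and in 12.9%. The cyclic AMP elements TGACGTCA and TGACG (the second lies within the first) and the C/EBP-ATF element TTGCATCA occurred in none of the 10 windows, compared with 1.59%, 18.2% and 0.693% of all promoters. A match describes the letters and is not evidence of binding.

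*Igfbp1*, which encodes the acutely regulated binding protein of the liver, lies on the plus strand of rn6 at chr14:87448716-87453783. Its TPM value was 35.1 in the sevoflurane control and 74.7 after 6 h of sevoflurane. In the desflurane pair, it was 7.94 in the control and 136 after 6 h. Both 6 h libraries were higher than both controls, and the desflurane control was the lowest of the 4. The fold change was 2.13 with sevoflurane and 17.2 with desflurane. Against the control of the other agent, it was 9.41 with sevoflurane and 3.89 with desflurane, so the order of the agents was exchanged. The controls themselves differed 4.42-fold, whereas the 6 h libraries differed 1.83-fold, with desflurane higher. Coverage, the mean number of reads over each exon base, was between 14.9 and 229.8, so *Igfbp1* was well sampled in every library. The sevoflurane value was the called value nearest to the fold limit among the 10 genes, and it was 1.96 when the StringTie assembly of the same locus was used in place of the annotated gene, which ended the call.

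*Igfbp2*, which encodes a binding protein that the fetal liver makes in large amounts and that rises in the adult liver on fasting, is at chr9:80118029-80144801 on the plus strand. Its TPM value was 3.13 in the sevoflurane control and 8.94 after 6 h of sevoflurane, and for desflurane it was 0.485 in the control and 8.05 after 6 h. As for *Igfbp1*, the 6 h libraries were the highest and the desflurane control was the lowest. The 6 h libraries were close to each other, with a 1.11-fold difference, whereas the controls differed 6.45-fold. Fold changes were 2.86 with sevoflurane and 16.6 with desflurane against the own control, and 18.4 and 2.57 against the other control. Coverage in the desflurane control was 0.908, less than 1 read per base, so the larger folds have a weakly measured denominator. With the assembled locus, the desflurane control had a TPM of 0.954 and the fold change with desflurane was 8.44.

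*Igfbp1* and *Igfbp2* were the members called higher in each comparison of a 6 h library with a control. Called means a TPM value higher than 2 in the higher library and a difference of more than 2-fold, the rule of the study. Against the own control, sevoflurane called 3 of the 9 genes that had a TPM value higher than 2 after 6 h (these and *Igfbp6*), compared with 2.3% of all genes. Desflurane called 2 of 8, compared with 2.84%. Against the other control, 2 of 9 genes were called with sevoflurane (2.6% of all genes) and 2 of 8 with desflurane (2.89%). The requirement to exceed both controls was passed by 2 of 9 with sevoflurane (1.23%) and 2 of 8 with desflurane (1.29%), and *Igfbp1* and *Igfbp2* were 2 of 49 genes, or 0.525% of those tested, in which both 6 h libraries exceeded both controls by more than 2-fold. The contrasts share libraries, and the genes were chosen with these values known, so nothing is read from these shares.

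The 2 genes were also called between the controls, where the sevoflurane control was higher in 2 of 8 genes and in 1.2% of all genes. In the opposite direction, *Igfbp6* was called, 1 of 8, compared with 1.19%. The 3 genes that differed most between the controls were thus the same 3 genes that were called with an agent. Between the 6 h libraries no gene was called, with 0 of 9 higher with sevoflurane (1.21% of all genes) and 0 of 8 higher with desflurane (2.8%).

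**Figure D2:**
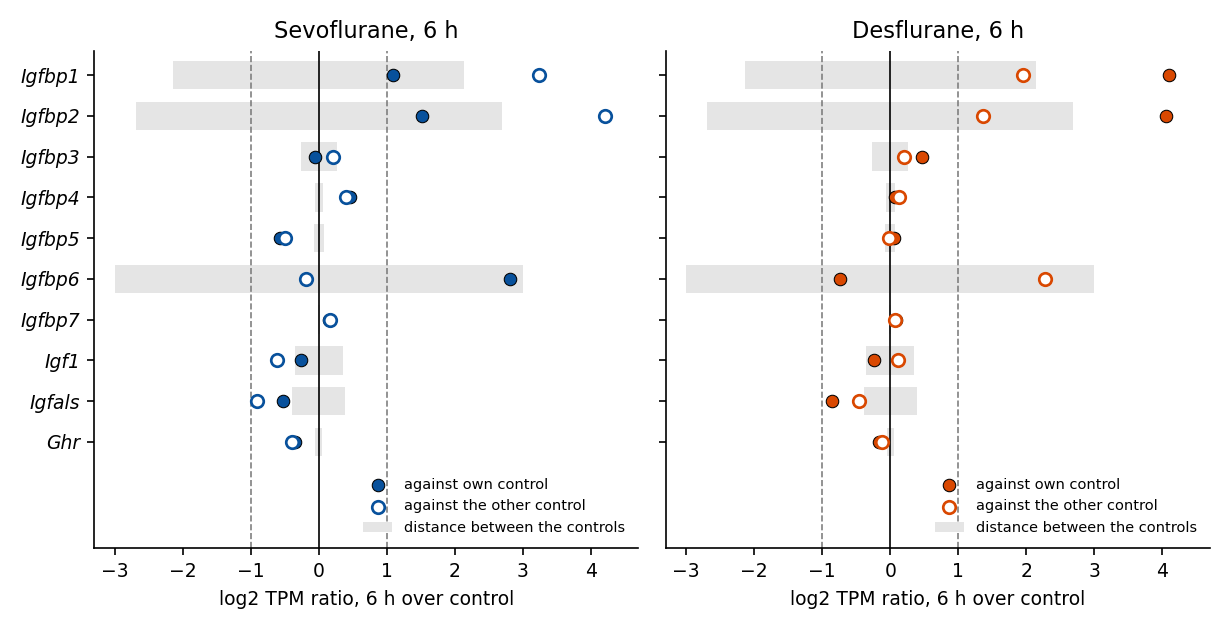
Log2 TPM ratio of each 6 h library over its own control (filled) and over the control of the other agent (open), with sevoflurane on the left and desflurane on the right. Grey bars extend on both sides of 0 by the log2 distance between the controls, and dashed lines mark a 2-fold difference. For *Igfbp1* and *Igfbp2* all 4 points lie beyond the dashed line, and for *Igfbp6* the points of each agent lie on opposite sides of 0.

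*Igfbp6*, whose product prefers IGF2 over IGF1, is at chr7:143749385-143754017 on the plus strand. Its TPM value was 0.380 in the sevoflurane control and 2.68 after 6 h of sevoflurane, and for desflurane it was 3.05 in the control and 1.83 after 6 h. The sevoflurane control was the only library far from the others. The fold change of 7.05 with sevoflurane became 0.879 against the desflurane control, and the fold change of 0.602 with desflurane became 4.82 against the sevoflurane control. The sevoflurane control had a coverage of 0.683, and its assembled locus had a TPM of 1.26, which reduced the fold change with sevoflurane to 2.13.

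*Igfbp3*, which encodes the main carrier of IGF1 in blood, is at chr14:87457647-87465374 on the minus strand. Its annotated 3′ end faces that of *Igfbp1* at a distance of 3863 bp, with no other annotated gene between them. The TPM value was 87.3 in the sevoflurane control and 83.9 after 6 h of sevoflurane, and for desflurane it was 72.9 in the control and 101 after 6 h. The groups overlapped, and the fold changes of 0.960 with sevoflurane and 1.38 with desflurane were small beside those of its neighbor. Against the other control, both were 1.15.

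*Igfbp5*, which encodes the other binding protein able to join the large complex, is at chr9:80154230-80166813 on the minus strand. It is in the same tail-to-tail arrangement with *Igfbp2*, 9428 bp away. Its TPM value was 1.13, 0.760, 1.07 and 1.11 in the order sevoflurane control, 6 h sevoflurane, desflurane control, 6 h desflurane. The gene never reached the TPM limit in any library, and it could not be called.

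*Igfbp4*, whose product inhibits IGF action and is cleaved by the protease pappalysin, is at chr10:86950555-86962563 on the plus strand. It was the most abundant binding protein transcript in every library. The TPM values were 774 in the sevoflurane control and 1068 after 6 h of sevoflurane, and for desflurane they were 808 in the control and 846 after 6 h. Both 6 h values were above both controls, with fold changes of 1.38 and 1.05, but after median-of-ratios scaling the desflurane value was 0.959 of its control.

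*Igfbp7*, which encodes a more distant relative with low affinity for IGFs that is made largely by endothelial and stellate cells, is at chr14:33010300-33070192 on the plus strand. Its TPM values were the most even of the group, at 113, 125, 111 and 119 in the same order. The fold changes were 1.11 with sevoflurane and 1.06 with desflurane, and the second was 0.974 after median-of-ratios scaling.

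Summed over the 7 binding proteins, TPM values were 1013 in the sevoflurane control and 1364 after 6 h of sevoflurane, and for desflurane they were 1005 in the control and 1213 after 6 h. *Igfbp4* contributed between 69.8% and 80.4% of this sum. The share of *Igfbp1* was 3.46% and 5.48% in the sevoflurane pair, and 0.790% and 11.2% in the desflurane pair. *Igfbp1* transcripts were fewer than *Igfbp3* transcripts in 3 libraries, with ratios of 0.402 in the sevoflurane control, 0.891 after 6 h of sevoflurane and 0.109 in the desflurane control, and more numerous after 6 h of desflurane, with a ratio of 1.36.

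*Igf1*, the hormone gene itself, is at chr7:28412198-28486609 on the plus strand. Its TPM value was 932 in the sevoflurane control and 774 after 6 h of sevoflurane, and for desflurane it was 1191 in the control and 1010 after 6 h. Each 6 h library was lower than its own control, by 1.20-fold and 1.18-fold. The controls differed 1.28-fold, more than either 6 h library differed from its own control, and the 6 h desflurane value was above the sevoflurane control. The TPM value of *Igf1* was between 2.12 and 2.29 times what its coverage gives at the median ratio of the library, which the other 9 genes followed. Calculated from the coverage, it was between 355 and 529, below *Igfbp4* in every library, so the rank of *Igf1* above *Igfbp4* in 3 libraries depended on how StringTie derived the value.

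*Igfals*, which encodes the acid-labile subunit and is a known target of growth hormone, is at chr10:14240308-14243554 on the plus strand. Its TPM values were 238 in the sevoflurane control and 165 after 6 h of sevoflurane, and for desflurane they were 312 in the control and 173 after 6 h. Both 6 h libraries lay below both controls. The controls were 1.44-fold and 1.81-fold higher than the 6 h libraries of the same agent, and against the other control the values were 1.89-fold for sevoflurane and 1.38-fold for desflurane. The control values differed 1.31-fold from each other. The desflurane value was the one nearest below the fold limit against the own control among the genes not called.

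*Ghr*, the receptor gene, is at chr2:53150370-53313884 on the minus strand. Its TPM values were 279 and 219 in the sevoflurane pair and 289 and 258 in the desflurane pair. The controls were close to each other, with a 1.04-fold difference, and 1.27-fold and 1.12-fold higher than the 6 h libraries. With the assembled locus in place of the annotated gene, however, the direction was the opposite. The values were then 205 and 224 in the sevoflurane pair and 202 and 248 in the desflurane pair, 1.09-fold and 1.23-fold higher after 6 h, so no direction is given for *Ghr*.

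None of the 10 genes was called lower. This was 0 of 8 with sevoflurane (3.38% of all genes) and 0 of 8 with desflurane (1.53%) against the own control, and 0 of 8 with each agent against the other control (2.64% and 1.64%). Against both controls together, 0 of 7 were lower with either agent, compared with 1.46% of all genes for sevoflurane and 0.61% for desflurane. Without a fold limit, both 6 h libraries were below both controls for *Igfals* and *Ghr*, 2 of 9 genes, compared with 13.3% of all genes, although the assembled locus put *Ghr* above both controls. They were above both controls for *Igfbp1*, *Igfbp2*, *Igfbp4* and *Igfbp7*, 4 of 9 genes, compared with 33.3%, although median-of-ratios scaling put *Igfbp4* and *Igfbp7* below the own control with desflurane. The median change of the 10 genes, as log2(TPM + 1), was 0.05 with each agent, and that of all genes tested was 0.05 with sevoflurane and 0.11 with desflurane.

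The balance between *Igfbp1* and *Igf1* transcripts combined these differences. The ratio of *Igfbp1* to *Igf1* was 0.0376 in the control and 0.0965 after 6 h of sevoflurane, and for desflurane it was 0.00667 in the control and 0.135 after 6 h. Both 6 h libraries were above both controls in this ratio, which uses the deposited TPM value of *Igf1*. The number of *Igf1* transcripts per *Igfbp1* transcript was thus 149.9 in the desflurane control and 7.41 after 6 h. The ratio of *Igfals* to *Igfbp3*, partners in the large complex, was 2.72 and 1.97 in the sevoflurane pair and 4.28 and 1.72 in the desflurane pair.

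**Figure D3:**
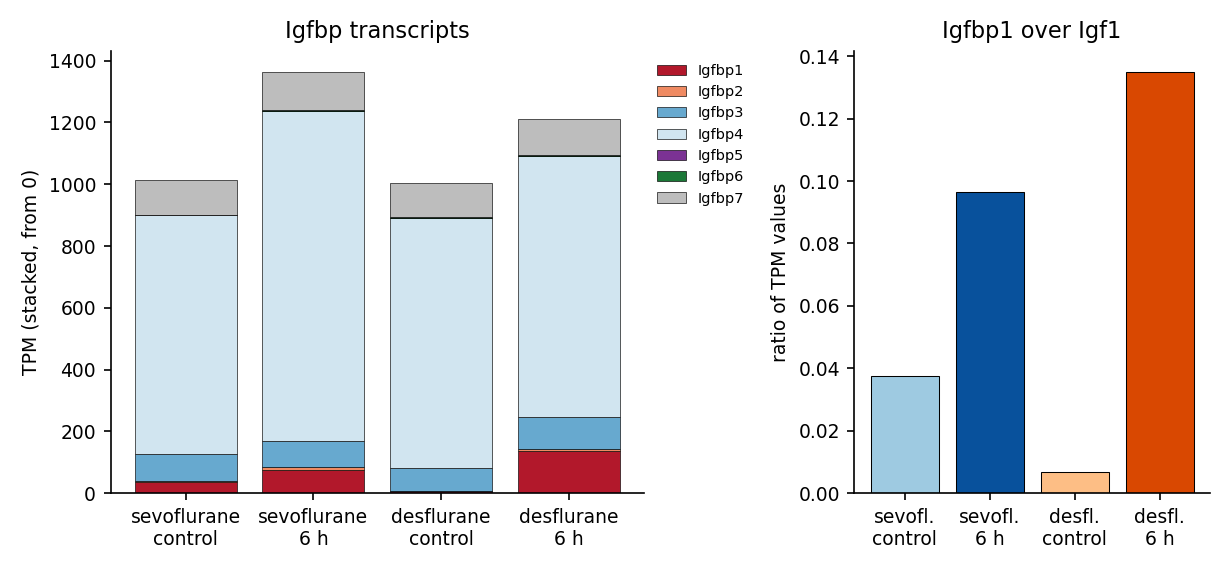
Left, summed TPM values of the 7 binding protein transcripts, stacked from 0, in each library. Right, the ratio of the *Igfbp1* to the *Igf1* TPM value in each library, which was 0.00667 in the desflurane control and 0.135 after 6 h of desflurane.

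Other genes of the axis were taken from 4 lists of ligands, receptors and substrates, IGFBP proteases and their inhibitors, growth hormone signaling, and growth hormone target genes. Of 46 genes listed, 42 were in the tables. Above the TPM limit in at least 1 library of the pair were 31 with sevoflurane and 32 with desflurane. With sevoflurane, 1 was called higher and 5 lower, and with desflurane 2 higher and 3 lower. Their median log2(TPM + 1) difference was -0.15 with sevoflurane and 0.00 with desflurane. In the same comparisons, 2.3% and 3.38% of all genes were called higher and lower with sevoflurane, and 2.84% and 1.53% with desflurane. Against the other control, 2 of the pathway genes were called higher and 6 lower with sevoflurane (2.6% and 2.64% of all genes), and 2 higher and 4 lower with desflurane (2.89% and 1.64%). Between the controls, 8 of them were called in either direction, compared with 228 of the 9993 genes with a TPM value above 2 in any library.

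In growth hormone signaling, 3 of 13 genes were called lower with sevoflurane and 2 with desflurane. *Cish*, a feedback inhibitor that growth hormone induces through STAT5, was expressed at TPM values of 21.9 in the sevoflurane control and 3.63 after 6 h of sevoflurane, and for desflurane they were 70.0 in the control and 8.40 after 6 h. Both 6 h values were below both controls, and the own controls were 6.04-fold and 8.34-fold higher. *Socs3*, a feedback inhibitor of cytokine receptors, was at 15.2, 3.74, 24.2 and 9.77 in the same order, again below both controls after 6 h. *Socs2*, another feedback inhibitor of the growth hormone receptor, was at 38.8, 20.3, 96.4 and 61.2 and was not called against the own control with either agent.

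*Irs3*, an insulin receptor substrate, was called lower with both agents, at 2.05 and 0.257 in the sevoflurane pair and 2.51 and 0.623 in the desflurane pair, values close to the TPM limit. *Irs2*, the main substrate of the insulin receptor in liver together with IRS1, was 2.39-fold higher with desflurane, at 8.34 and 19.95, and at 10.1 and 7.01 in the sevoflurane pair. The receptor gene *Insr* and its adaptor *Grb14*, the most abundant genes of this list, were not called. Of the 6 protease and inhibitor genes in the tables, only 2 were above the TPM limit in the pair of each agent and could be called, and none was. The most abundant were *Htra1*, with TPM values of 47.2 to 56.6, and *Mmp2*, with 9.32 to 10.7.

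Among 10 growth hormone target genes, *Onecut1* was called higher and *Bcl6* lower with sevoflurane, and the male-specific *Cyp2c11* was called higher with desflurane. In all 3 genes the direction was opposite with the other control. *Cyp2c11* was at 1457, 1245, 544 and 1146 in the order sevoflurane control, 6 h sevoflurane, desflurane control, 6 h desflurane, so the desflurane control alone was low. *Bcl6* was at 50.7, 16.6, 5.87 and 8.49, and *Onecut1* at 15.2, 33.9, 61.2 and 41.9, so that the controls were the extremes in both. The most abundant genes of the list, *Cyp2c13* and *Cyp3a2*, were not called.

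**Figure D4:**
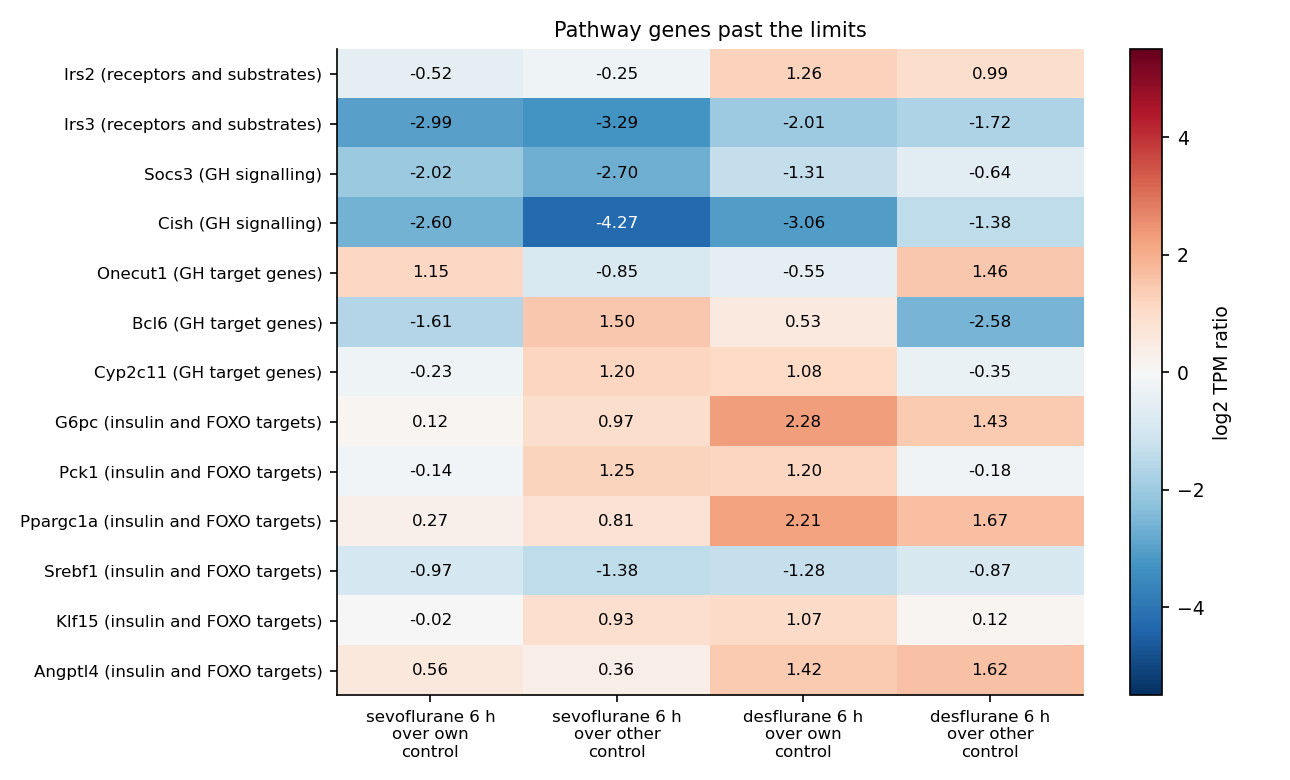
Log2 TPM ratios of 13 genes called with at least 1 agent in the lists of receptors and substrates, growth hormone (GH) signaling, GH targets, and insulin and FOXO targets. Columns give each 6 h library over its own and over the other control, and of the genes drawn only *Irs3*, *Socs3*, *Cish* and *Srebf1* are below 0 in all 4 columns.

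Because *Igfbp1* belongs to the genes that insulin represses, a list of 13 other genes was set beside it. The list holds insulin and FOXO targets and genes of the FOXO factors themselves. None was called with sevoflurane against its own control, and 1 was higher and 3 were lower against the other control. With desflurane, 5 were called higher and 2 lower against its own control, and 3 higher and 1 lower against the other control. The shares of all genes called in these comparisons are those given above for the pathway genes. *G6pc*, the last enzyme of glucose release, was at 206 and 223 in the sevoflurane pair and at 114 and 554 in the desflurane pair. *Ppargc1a*, a coactivator of gluconeogenic genes, was at 4.23 and 5.08, and at 2.90 and 13.5. *Pck1*, a gluconeogenic enzyme, was at 1079 and 980, and at 414 and 951, so that only the desflurane control was low, and *Klf15* behaved in the same way at 61.3 and 60.5, and 31.7 and 66.6. *Angptl4*, an inhibitor of lipoprotein lipase, was at 23.3 and 34.4, and at 26.7 and 71.7, which is 2.68-fold higher with desflurane. *Srebf1*, a lipogenic factor that insulin induces, was at 136 and 69.5, and at 181 and 74.3. In the desflurane control *Igfbp1*, *G6pc* and *Pck1* were thus at their lowest and *Srebf1* at its highest of the 4 libraries. The list was not uniform in this respect. *Angptl4* was lowest in the sevoflurane control. *Pdk4*, which was not called, was at 40.8 and 26.7, and at 71.4 and 80.3, so its value was higher in the desflurane control than in the sevoflurane control. The part of these differences in the *Igfbp1* values was not tested.

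Genes of other pathways known to act on *Igfbp1* were counted in the same way, against the own control unless stated, and beside the same shares of all genes. A list of 12 genes held the stress factor gene *Atf4* and its targets. Of these, 8 were called higher with sevoflurane (*Trib3*, *Asns*, *Chac1*, *Fgf21*, *Ddit4*, *Vldlr*, *Nupr1* and *Slc7a11*). With desflurane, 1 was called higher (*Trib3*) and 2 lower (*Chac1* and *Ddit4*). Against the other control, 5 were higher and 1 lower with sevoflurane, and 2 higher and 0 lower with desflurane. *Trib3*, an inhibitor of AKT, was at 3.79 and 14.9 in the sevoflurane pair and at 4.31 and 9.69 in the desflurane pair. Of 11 glucocorticoid genes, the receptor gene and targets, *Zbtb16* was called higher and *Sgk1* lower with sevoflurane. With desflurane, *Per1*, *Zbtb16*, *Mt1*, *Mt2A* and *Tdo2* were called higher and *Dusp1* lower. Against the other control, the numbers were turned round, with 5 higher and 1 lower with sevoflurane and 2 higher and 1 lower with desflurane. *Zbtb16* was at 3.59 and 13.8, and at 4.52 and 19.2, higher in both 6 h libraries than in both controls. A list of 13 hypoxia genes, response factors and their targets, was led by *Epas1* and *Vegfa*. Of these, 9 were above the TPM limit in the pair of each agent, and none was called. Of 8 genes in the tables that share the IGF binding protein name or domain, such as *Igf2bp3* and *Ccn1*, only 3 were above the TPM limit in the pair of each agent. None was called against the own control.

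Binding proteins in the liver come from different cells, and markers of these cells were summed beside them. The 14 stellate cell and fibroblast markers in the tables, led by *Col3a1* and *Ecm1*, summed to TPM values of 475 and 518 in the sevoflurane pair and 476 and 548 in the desflurane pair. The 12 endothelial markers, led by *Fcgr2b* and *Eng*, summed to 395 and 381, and 377 and 435. These sums moved no more than 1.15-fold from the own control, as did *Igfbp7*. The 11 Kupffer cell markers, led by *C1qc* and *Clec4f*, were at 810 and 485 in the sevoflurane pair, where 0 of 11 were higher after 6 h, and at 641 and 757 in the desflurane pair. The 9 leukocyte markers, led by *Cd74* and *Lyz2*, were at 442 and 149, and 268 and 290. The 6 cholangiocyte markers summed to between 36.1 and 42.6, and the 4 mesothelial markers, led by *Gpm6a* and *Msln*, to between 18.6 and 22.1, with *Krt5* at 0 in all libraries. Of the 11 pancreatic acinar markers, 0 were higher after 6 h of sevoflurane, and *Cpb1* and *Ctrb1* led the list. The part of other cells in the values of the binding proteins was not tested.

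The genes with the pattern most like that of *Igfbp1* and *Igfbp2* were identified among 9993 genes by the distance between log2(TPM + 1) values, each centered on its mean over the 4 libraries. For *Igfbp1*, the nearest were *Zfp354a* at a distance of 0.742, *Igfbp2* at 0.980, *RGD1359290* at 0.981, *Scnn1a* at 1.16 and *Tex36* at 1.21. For *Igfbp2*, they were *Nceh1* at 0.558, *Rhbdd2* at 0.564, *Scnn1a* at 0.572, *Zfp354a* at 0.670 and *Rdh16* at 0.716. The added TPM of 1 reduced the fold change of *Igfbp2* with desflurane from 16.6 to 6.10, because its control was at 0.485. The TPM values of *Nceh1* and *Rhbdd2* had fold changes with desflurane of 4.305 and 4.084. *Zfp354a* was at TPM values of 18.5 and 70.5 in the sevoflurane pair and 7.06 and 76.5 in the desflurane pair, and like *Igfbp1* it was lowest in the desflurane control and highest after 6 h of desflurane. *Nceh1* was at 19.8 and 49.6, and at 10.9 and 46.9, with the 6 h libraries close to each other as for *Igfbp2*. The distance from *Igfbp1* to its chromosomal neighbor *Igfbp3* was 2.65. With 4 libraries, such distances describe these livers.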

How the data were processed

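The authors trimmed paired-end reads with sickle, mapped them to rn6 with HISAT2, sorted them with SAMtools, and ran StringTie with the refGene annotation. The study's methods and the labels name different Illumina total RNA kits. The deposited tables give coverage (a signal per exon base that is not normalized), FPKM, and TPM values scaled by the authors so that the assembled rows add up to 1000000. The annotated rows repeat the same reads on that scale and add up to between 779824 and 813454. The tables hold no read counts, so counting intervals were not calculated.

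Annotated rows of 200 bp or shorter (495 to 518 per library) were removed, and TPM values of the same symbol were summed. Genes were called with a TPM value higher than 2 in the higher library and a difference of more than 2-fold. The calling code was run on simulated data with 16992 genes, in which 200 of 200 genes changed 4-fold were recovered with 0 false calls in each comparison. The simulated noise was much smaller than the differences between the 2 control livers. The run therefore checks only that the rule works as written, and it gives no rate of false calls for these libraries. Python 3.11.15, numpy 2.4.6, pandas 2.3.3 and matplotlib 3.10.9 were used.

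The 10 genes and all lists were chosen with earlier results of these data known. Named genes are the 10, the called and the 2 most abundant genes of the pathway lists, the 2 most abundant markers and those at 0 in all libraries, and the 5 nearest in pattern to *Igfbp1* and *Igfbp2*. *Pdk4* is named in addition. For the ATF4, glucocorticoid, hypoxia and name-sharing lists, not all of these are named with values. A few named genes are not reported here but remain in the counts. Other settings tried were the TPM and fold limits, the scaling, FPKM, assembled rows and the choice of control.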

Additional observations from a re-analysis of the deposited data

Results flagged for a closer look

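Several genes differed in opposite directions in the agents against their own controls, and these differences were not tested because each agent has 1 library per state. The fold changes with sevoflurane and desflurane were 0.960 and 1.38 for *Igfbp3*, 0.675 and 1.04 for *Igfbp5*, and 7.05 and 0.602 for *Igfbp6*. Against the other control, both values of *Igfbp3* were 1.15. *Igfbp5* was below the TPM limit in every library, and with assembled rows its values were 0.976 and 0.926, no longer in opposite directions. Among the receptors and substrates, they were 0.880 and 1.52 for *Insr* and 0.696 and 2.39 for *Irs2*. The protease gene *Mmp2* had 0.954 and 1.03, a difference of little size. Among growth hormone targets, they were 2.23 and 0.685 for *Onecut1*, 0.327 and 1.45 for *Bcl6*, 0.855 and 2.11 for *Cyp2c11*, and 0.938 and 1.39 for *Cyp3a2*. Among the insulin and FOXO targets, they were 0.908 and 2.30 for *Pck1* and 0.986 and 2.098 for *Klf15*.

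The assembled rows, which the comparisons did not use, held transcripts opposite to 3 of the 10 genes at a level above both controls. In each case this held for the 6 h library of only 1 agent. Opposite *Igfbp6*, the TPM value was 2.005 after 6 h of sevoflurane, 0.860 in the desflurane control and 0 in the other libraries. Opposite *Igf1*, it was 0.601 after 6 h of desflurane and 0 in the other libraries. Opposite *Igfbp7*, it was 44.2 after 6 h of sevoflurane and 40.8 after 6 h of desflurane. The sevoflurane and desflurane controls were at 38.3 and 42.3 there. None of these has a replicate.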

How the results depend on the processing

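Each condition has 1 library, so no replicate could be left out, and a paired fit over both agents, which would take the agents as replicates of each other, was not made. The planned addition of assembled rows to a gene was not run, because those rows repeat the same reads, and they were used in place of the annotated gene, a choice made after seeing the data. Of 173 summary values under the alternatives, 148 stayed within the limits set for them and 25 moved. A fall from 3 to 2 in the number of the 10 genes called higher with sevoflurane was within its limit. Without a TPM limit, 3 pathway genes were called higher and 9 lower with sevoflurane, and 4 higher and 5 lower with desflurane. With a TPM limit of 5, 1 of the 10 genes was called between the controls, and *Igfbp6* was no longer called with sevoflurane. With a fold limit of 1.5, 2 pathway genes were higher and 8 lower with sevoflurane and 5 higher and 5 lower with desflurane, 2 of the 10 genes were lower with desflurane, and 1 was called between the 6 h libraries. With a fold limit of 3, only *Igfbp6* of the 10 genes was higher with sevoflurane, and 0 pathway genes were higher with either agent. Above both controls at this limit was 1 gene, *Igfbp1*, and only in the 6 h desflurane library. For *Igfbp1* and *Igfbp2*, the lower 6 h value was 2.13-fold and 2.57-fold the higher control. No gene of the 10 therefore had both 6 h libraries above both controls by this limit. Median-of-ratios scaling gave 1 pathway gene higher with desflurane and member medians of -0.01 with sevoflurane and -0.05 with desflurane. FPKM gave 1 pathway gene higher with desflurane, 1 of the 10 genes between the controls, and medians of -0.01 with both agents. With the other control, 2 pathway genes were higher with sevoflurane. With the mean of both controls, these were 0 with sevoflurane and 1 with desflurane. The fold change of *Igfbp6* with sevoflurane was 0.879 with the other control, the only called value of the 10 genes that was reversed. Under the alternatives that kept the own control, *Igfbp1* ranged from 1.96 to 2.13 with sevoflurane and from 15.4 to 17.2 with desflurane, and *Igfbp2* from 2.41 to 2.86 and from 6.10 to 16.6. The causes of these differences were not tested. Coverage below 1 read per base limits *Igfbp2* in the desflurane control and *Igfbp6* in the sevoflurane control.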
